A study of Oryza sativa with 12 samples.

Results

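The asp1-10 mutant of rice was compared with wild type (WT) in the inflorescence meristem, on 3 arrays of each genotype. ASP1 encodes a corepressor of the TOPLESS family. Such proteins do not bind DNA themselves: transcription factors and Aux/IAA proteins recruit them through a short repression motif, and they in turn bring in histone deacetylases that silence the target genes. In rice ASP1 is known for its part in panicle branching, spikelet formation and meristem maintenance, and loss of a corepressor can raise genes that it holds down as well as change others indirectly.

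The 6 arrays compared were 6 of the 12 in the series, and the comparison ran across all 15140 genes that had a probe with 1 listed gene. The other lines were fon2-3, a mutant of the CLAVATA3-like peptide gene FON2, and fon2-3 asp1-fe, the double mutant that joins fon2-3 to another asp1 allele than asp1-10, with 3 arrays each. Plants of all 4 genotypes grew outdoors in pots of soil, and meristems were dissected at the early In1 to In2 stage with a few bracts still attached. The labels used here give neither the background cultivar, nor the nature of each allele, nor the number of plants behind an array. Whether replicates 1 to 3 of a genotype came from separate plants is not said, so the spread behind each p-value may be technical. In bulk tissue, fewer cells of a type and less RNA per cell cannot be told apart.

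Values are deposited array signals on a log scale taken as base 2, so a difference of 1 is a 2-fold difference. Array medians lay between 5.51 and 5.6, and 5.55, the median of all values, marks here where a probe becomes dim and its fold change may be too small. ASP1 was not found under that name, and whether it is among the unnamed measured genes was not tested. The labels were therefore not checked through the mutated gene. The tissue was checked through marker genes. All 5 measured meristem genes (OSH1, OSH15, OSH71, FON1 and WOX4) had signal, 4 of them above 5.55 on all 6 arrays. The exception was OSH71, at 5.14 in WT replicate 1. The mean level of the 5 ran from 6.07 to 6.70 in WT and from 7.17 to 7.30 in asp1-10, and the part of meristem share in the KNOX results was not tested. WOX4 alone of the 5 was not higher in asp1-10, with 6.04, 6.02 and 5.93 in WT and 5.87, 5.94 and 5.79 there. Of 6 floral organ genes 3 lay below 5.55 on all 6 arrays, among them MADS3 and MADS58, genes of stamen and carpel identity. DL and MADS2 lay above 5.55 on all 6 arrays, DL at 8.52 to 10.38, and MADS16 ran from 5.24 to 6.63. Of 8 photosynthesis genes, which mark the green bracts, CAB1R and CAB2R were below 5.55 throughout, and PSAG, PSB28 and petC were above it throughout. The mean level of the 8 ran from 5.46 to 5.77 in WT and from 4.86 to 5.40 in asp1-10. PSAH and OEE3 were the 2 of the 8 without overlap between these genotypes, against 27.5% of all genes.

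Replicate 3 of asp1-10 lay apart from replicates 1 and 2. It correlated with them at a mean Pearson r of 0.975 over all probes, and with the fon2-3 and the double mutant arrays at 0.983 each, whereas replicates 1 and 2 had mean r of 0.980 and 0.981 within their group. Of 15140 genes 326 on replicate 3 differed from the mean of the other pair by more than 1 log2 unit, 220 of them lower, against 167 for replicate 1 and 139 for replicate 2. The same count in WT was 112, 104 and 41. Of the genes called against WT and named by rule, 10 kept the call in limma without asp1-10 replicate 3 and 36 lost it. Values without replicate 3 are given for some genes and lists only.

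In asp1-10, 212 genes rose and 156 fell, which is 368 of 15140 or 2.43% (1.4% higher and 1.03% lower; limma, two-sided, Benjamini-Hochberg adjusted p below 0.05 over all 54922 probes). The 3 asp1-10 values and the 3 WT values did not overlap in any of the 368 genes, against 27.5% of all genes with no overlap in either direction. The 368 genes were called on these same values, so their lack of overlap adds no support. The median change among the rises was 1.78-fold (range 1.36-fold to 15.8-fold) and among the falls 1.86-fold (range 1.40-fold to 6.78-fold). The median log2 change of all genes was 0.0057, and 2937 genes (19.4%) had an unadjusted p below 0.05, the share against which the unadjusted counts of gene lists stand. Counts of called list members stand against the 2.43% of all genes, or 3.39% of the 1740 genes with a name. Called genes lay on all 12 chromosomes, from 1.36% of the genes on chromosome 11 to 2.99% on chromosome 10 (chromosomes from the RefSeq table of assembly ASM3414082v1).

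The spread used in these tests came from all 12 arrays. When only the 6 asp1-10 and WT arrays were fitted, 1 gene passed, and it was ASPR2. With all genotypes kept, leaving out WT replicate 1 gave 47 genes and leaving out WT replicate 2 or 3 gave 159 or 70. Leaving out asp1-10 replicate 1 gave 131 genes, and leaving out asp1-10 replicate 3 gave 72 (0.476%). The count was 230 or 237 when replicate 1 or 3 of the double mutant was left out, and 249 to 366 for each other array. Of the 46 genes called and named by rule, ASPR2, DL, GA20OX3, HSP17.4 and PRR37 kept the call with each of the 12 arrays left out, and all 46 kept their direction. For the others the number of these 12 fits that kept the call is given with the values.

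ASPR2 (LOC4327709, chromosome 1), a TOPLESS-family corepressor gene related to ASP1, read 8.74, 8.74 and 8.78 in WT and 11.02, 10.84 and 10.68 in asp1-10. Every asp1-10 array lay about 2 log2 units above every WT array, and the WT arrays were nearly equal. The rise was 4.27-fold (log2 change 2.09, SE 0.22, n = 3 per group, limma adjusted p = 0.00698), and over the fits without 1 array its adjusted p ran from 0.00175 to 0.0431. ASPR1 (listed as TPR3, chromosome 3), the other family member found by name, read 11.39, 11.32 and 11.32 in WT and 11.34, 11.44 and 11.29 in asp1-10. Its groups overlapped, and its log2 change of 0.01 (SE 0.091, adjusted p = 0.968) turned negative where arrays were centred on their median (-0.012). Of the 2 TOPLESS-family genes found by name 1 therefore rose and 1 did not pass. The names follow the synonyms of the RefSeq table.

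**Figure D1:**
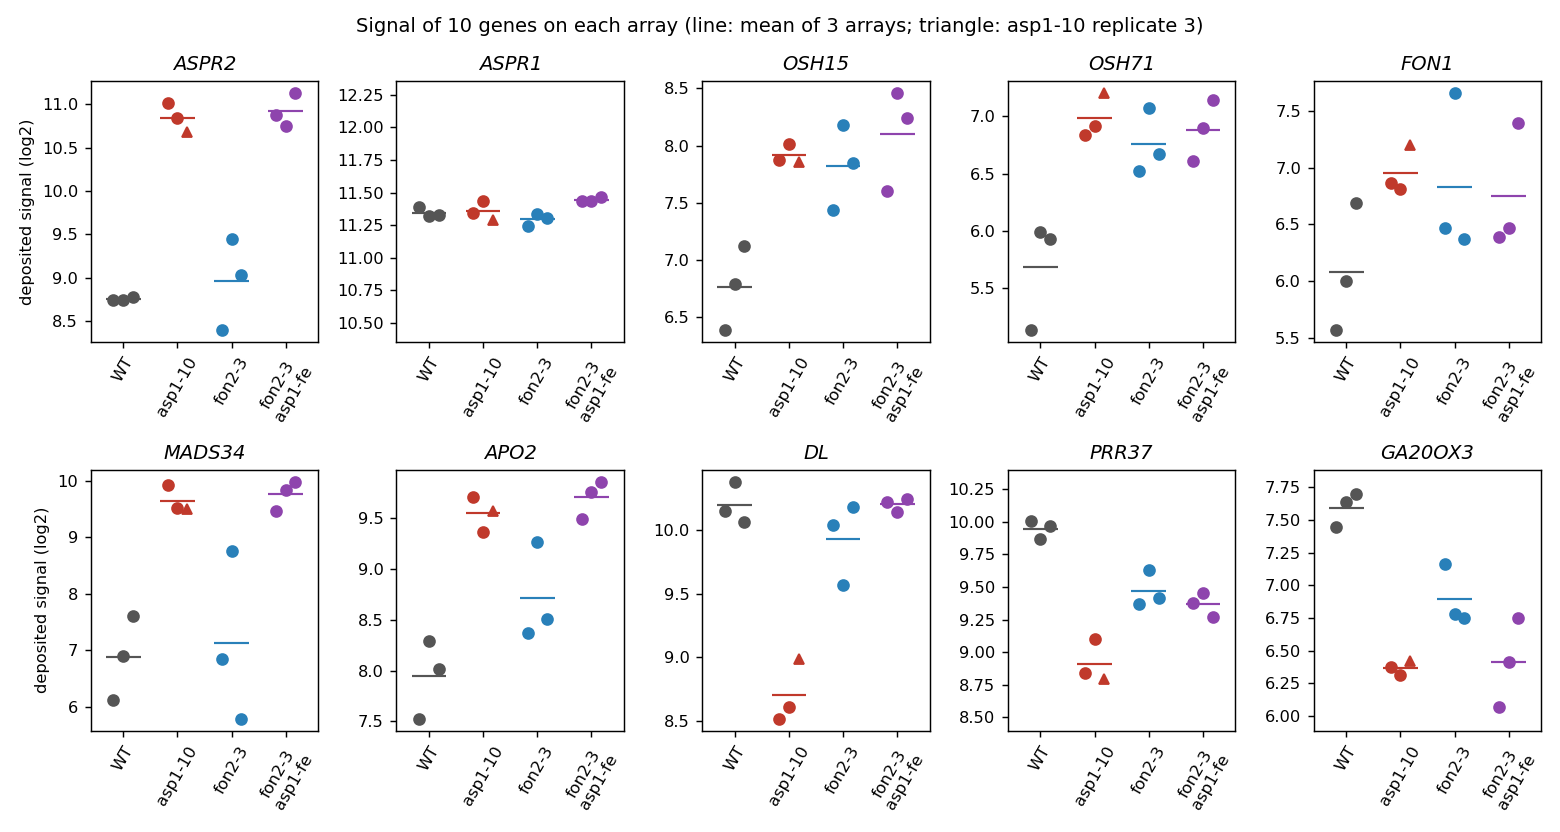
Deposited log2 signal (vertical axis, own scale per gene) of 10 genes on each of the 12 arrays, by genotype, with points for arrays, lines for the mean of 3 arrays and a triangle for asp1-10 replicate 3. ASPR2, MADS34 and APO2 are high on all asp1-10 arrays, DL, PRR37 and GA20OX3 are low there, and ASPR1 lies between 11.2 and 11.5 on every array.

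Some genes that keep meristem cells undifferentiated rose in asp1-10. Of 7 measured KNOX and related homeobox genes 2 rose (28.6%, against 2.43% of all genes called), 0 fell and 5 did not pass. The median log2 change was 0.81 against 0.0057 over all genes. Without asp1-10 replicate 3 the median was 0.83 and 0 of the 7 passed in limma. OSH71 read 5.14, 5.99 and 5.93 in WT and 6.83, 6.91 and 7.20 in asp1-10, with no overlap. It rose 2.46-fold (SE 0.24, adjusted p = 0.0283, call kept in 9 of 12 fits without 1 array, highest adjusted p 0.0897). OSH15, a gene of internode and meristem growth, read 6.38, 6.79 and 7.12 in WT and 7.88, 8.02 and 7.86 in asp1-10.

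The asp1-10 values of OSH15 were tightly grouped and the WT values were spread. OSH15 rose 2.22-fold (SE 0.25, adjusted p = 0.0436, kept in 4 of 12 fits, highest adjusted p 0.13). OSH1, the most widely used rice meristem marker, read 7.24, 8.05 and 7.82 in WT and 8.39, 8.68 and 8.45 in asp1-10, without overlap, but missed the threshold (log2 change 0.81, adjusted p = 0.0947). OSH45 also missed it, at a log2 change of 1.41 (adjusted p = 0.0817). HOS58, HOS59 and HOS66 differed by 0.03, 0.38 and 0.07 and their groups overlapped.

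The CLAVATA and WUSCHEL pathway, in which a peptide and its receptor kinases limit the stem cell pool against WOX-type factors, had 6 measured genes and 0 calls in limma, with 1 at an unadjusted p below 0.05. FON1, the CLAVATA1-like receptor kinase, read 5.57, 6.0 and 6.69 in WT and 6.86, 6.81 and 7.20 in asp1-10. These values did not overlap, but the difference did not pass (log2 change 0.87, SE 0.39, adjusted p = 0.255). WOX4, a WUSCHEL-type homeobox gene, read 6.04, 6.02 and 5.93 in WT and 5.87, 5.94 and 5.79 in asp1-10 (log2 change -0.13, adjusted p = 0.596). The other 4 members, OsWOX6, OsWOX7, OsWOX9 and CLE202, were dim in both genotypes.

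Among 9 measured genes of panicle architecture 2 rose and 1 fell. APO2, the rice LEAFY orthologue that promotes branch formation in the panicle, read 7.52, 8.29 and 8.02 in WT and 9.70, 9.36 and 9.56 in asp1-10. All asp1-10 arrays were more than 1 log2 unit above the highest WT array. The rise was 3.03-fold (SE 0.24, adjusted p = 0.0152, kept in 10 of 12 fits), and the call was lost without WT replicate 1 (adjusted p = 0.0538) and without asp1-10 replicate 3 (0.0511). MOF1, a MYB-type repressor that limits floret number in the spikelet, read 6.54, 6.83 and 6.42 in WT and 7.32, 7.86 and 8.30 in asp1-10, a rise of 2.35-fold (adjusted p = 0.0395, kept in 3 of 12 fits, highest 0.122).

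DL, a YABBY-type gene of carpel identity and the leaf midrib, fell. It read 10.14, 10.38 and 10.06 in WT and 8.52, 8.61 and 8.99 in asp1-10, so that the groups lay more than 1 log2 unit apart. The fall was 2.8-fold (log2 change -1.49, SE 0.17, adjusted p = 0.00805, from 0.00635 to 0.0431 over the fits without 1 array). DL was the 1 call among 6 YABBY genes, whose median was -0.30. LAX1, a bHLH gene of axillary meristems, read 4.50, 7.13 and 7.18 in WT and 8.09, 7.62 and 7.99 in asp1-10. LAX1 did not pass (log2 change 1.63, SE 0.999, adjusted p = 0.425). WT replicate 1 lay far below the other WT arrays, and fon2-3, which shares the estimate of the spread, ran from 4.98 to 9.33. FZP, which gives spikelet meristems their identity, was dim on all arrays, and PLA1, PLA3, NL1 and CKX2 did not pass.

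MADS34, a SEPALLATA-like gene that acts in panicle branching and spikelet identity, read 6.11, 6.90 and 7.6 in WT and 9.92, 9.51 and 9.50 in asp1-10. The groups were almost 2 log2 units apart, with the spread mostly in WT. It rose 6.83-fold (SE 0.60, adjusted p = 0.0417), and the call was kept in 2 of 12 fits without 1 array (highest adjusted p 0.125). It was the 1 call among 21 measured MADS-box genes, whose median log2 change was -0.08 and of which 13 were dim. Of the 7 measured floral organ genes of that family 0 passed in limma and 0 had an unadjusted p below 0.05. MADS16, a petal and stamen identity gene, differed most among them, at 0.67 (adjusted p = 0.323).

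SPL6, a SQUAMOSA-promoter-binding factor, rose 1.47-fold from 7.96, 8.0 and 7.99 to 8.43, 8.46 and 8.71 (adjusted p = 0.0395, kept in 2 of 12 fits, highest 0.127). It was the 1 call among 7 SPL genes. SPL7 lay nearest to it, with a log2 change of 0.83 that missed the threshold (adjusted p = 0.0663).

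**Figure D2:**
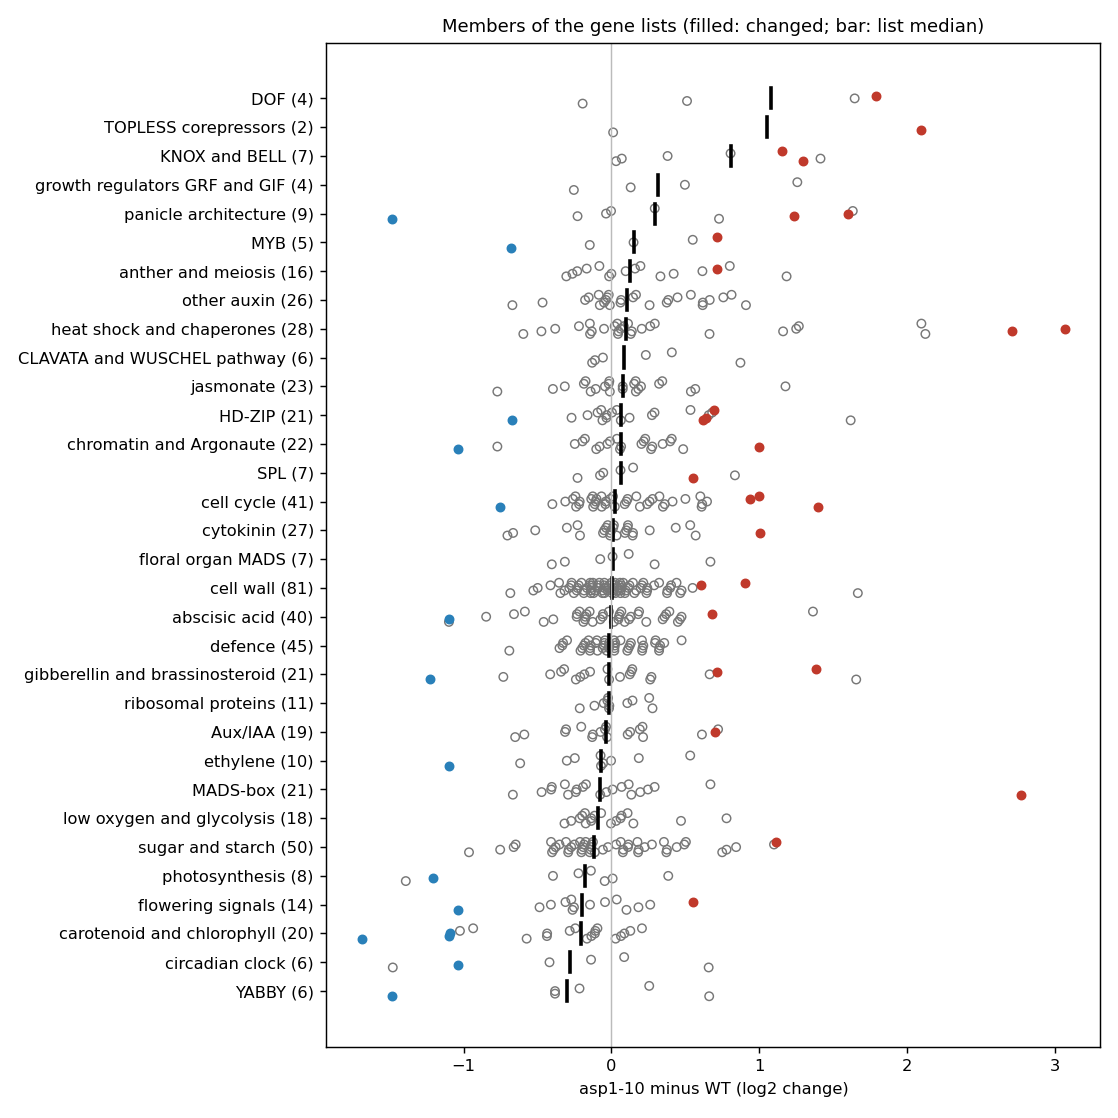
Log2 change, asp1-10 minus WT (horizontal axis), of every measured member of 32 gene lists (number of members in brackets), filled red where it rose and blue where it fell, with a black bar at the list median. Medians lie highest for DOF, TOPLESS and KNOX genes and lowest for YABBY, circadian clock and carotenoid and chlorophyll genes, while most members of most lists lie near 0 and did not pass.

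Of 4 DOF transcription factor genes 1 rose, and of 21 HD-ZIP homeobox genes 3 rose and 1 fell. DOF1, a zinc finger factor, read 5.14, 5.60 and 5.33 in WT and 6.75, 7.06 and 7.61 in asp1-10, with no overlap. It rose 3.45-fold (SE 0.27, adjusted p = 0.0146), and the call was lost without WT replicate 1 (adjusted p = 0.0569) and in the fit of 6 arrays (0.0711). DOF4 changed by 1.64 and missed the threshold (adjusted p = 0.0572), and the median of the 4 DOF genes was 1.08.

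The HD-ZIP genes that rose were OsHox32 (1.56-fold, adjusted p = 0.0298, kept in 7 of 12 fits) and OsHox9 (1.62-fold, adjusted p = 0.0364, kept in 4), both of the class that sets the upper side of leaves and the vasculature, and Roc5 (1.54-fold, adjusted p = 0.0298, kept in 6), of the class active in the outer cell layer. HOX24 was the fall, 1.60-fold from a dim 4.67, 4.78 and 4.32 to 4.0, 3.89 and 3.86 (adjusted p = 0.0395, kept in 3). HOX4 had the largest change of the list, 1.62, and just missed the threshold (adjusted p = 0.0515). Of 4 growth-regulating factors 0 passed in limma, with 2 at an unadjusted p below 0.05. GRF1 read 6.88, 7.52 and 7.20 in WT and 7.63, 8.80 and 8.95 in asp1-10 (log2 change 1.26, adjusted p = 0.116).

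Cell cycle genes moved both ways: of 41 measured, 3 rose, 1 fell and 37 did not pass, with a median of 0.02. CYCD2-2, a D-type cyclin of entry into the cycle, read 7.52, 7.83 and 7.52 in WT and 8.70, 8.61 and 9.75 in asp1-10. Its rise of 2.63-fold (adjusted p = 0.031, kept in 8 of 12 fits, highest 0.0957) was largest on replicate 3. CYCD6-1, another D-type cyclin, rose 1.91-fold (adjusted p = 0.0303, kept in 9). ORC4, a subunit of the complex that marks replication origins, read 7.01, 7.31 and 7.42 in WT and 8.09, 7.82 and 8.83 in asp1-10.

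ORC4 rose 2-fold, with a call near the threshold (adjusted p = 0.0462, kept in 1 of 12 fits, highest 0.137). CYCB1-1, a mitotic B-type cyclin, went the other way, from 8.46, 8.72 and 8.58 to 7.92, 8.05 and 7.54, a fall of 1.68-fold (adjusted p = 0.0396, kept in 4, highest 0.119). The replication helicase genes MCM2, MCM3 and OsMCM6 had log2 changes of 0.65, 0.35 and 0.61 and did not pass.

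Hormone genes gave isolated calls. HK5, a cytokinin receptor kinase, read 6.6, 6.68 and 6.56 in WT and 7.71, 7.43 and 7.71 in asp1-10. The groups were clearly apart and the rise was 2-fold (SE 0.15, adjusted p = 0.0146, lost without WT replicate 1, adjusted p = 0.0527, and in the fit of 6 arrays, 0.0635). It was the 1 call among 27 cytokinin genes, whose median was 0.01.

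Of 21 gibberellin and brassinosteroid genes 2 rose and 1 fell. GA20OX3, an oxidase of gibberellin synthesis, fell from 7.45, 7.64 and 7.70 to 6.38, 6.31 and 6.42. The fall was 2.34-fold (SE 0.17, adjusted p = 0.0133, from 0.0142 to 0.0454 over the fits without 1 array). CYP724B1, the brassinosteroid synthesis gene also called D11, rose 2.61-fold from 5.58, 6.68 and 5.30 to 7.01, 7.27 and 7.44 (adjusted p = 0.0429, kept in 1 of 12 fits, highest 0.135). CYP734A6, which inactivates brassinosteroids and was not on the list, fell 1.76-fold (adjusted p = 0.0378, kept in 4). GAMYB, a gibberellin-responsive factor of anther development, rose 1.64-fold with adjusted p = 0.0454, and this call was lost with any of the 12 arrays left out (0.0539 to 0.13).

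MHZ4, a gene of abscisic acid synthesis that also acts in the ethylene response of roots, fell from 8.58, 8.38 and 8.39 to 7.09, 7.30 and 7.66. The fall was 2.14-fold (SE 0.17, adjusted p = 0.0151, lost without WT replicate 1, adjusted p = 0.0616, and in the fit of 6 arrays, 0.0805). OsPP2C41, a protein phosphatase counted with the abscisic acid genes, rose 1.60-fold (adjusted p = 0.0433, kept in 1 of 12 fits). These were the calls among 40 abscisic acid genes, whose median was -0.0009, and MHZ4 was also the 1 call among 10 ethylene genes.

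Aux/IAA repressors, the auxin-pathway partners of TOPLESS proteins, had 1 call among 19. IAA17 read 11.10, 11.09 and 11.08 in WT and 11.87, 11.74 and 11.75 in asp1-10, a small but tight rise of 1.62-fold (adjusted p = 0.0329, kept in 5 of 12 fits, highest 0.096). Of 26 other auxin genes 0 passed in limma, 11 (42.3%, against 19.4% of all genes) had an unadjusted p below 0.05, and 15 changes were positive. ARF3, an auxin response factor, read 9.06, 9.48 and 9.08 in WT and 9.64, 9.98 and 10.73 in asp1-10 (log2 change 0.91, adjusted p = 0.108). Of 23 jasmonate genes 0 passed in limma and 4 had an unadjusted p below 0.05.

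PRR37, a clock-related gene that delays heading, fell from 10.00, 9.87 and 9.97 to 8.84, 9.10 and 8.79. Both groups were tight, and the fall was 2.05-fold (log2 change -1.04, SE 0.12, adjusted p = 0.00805, from 0.00681 to 0.0431 over the fits without 1 array). Ehd4, a zinc finger gene that promotes flowering, rose 1.47-fold (adjusted p = 0.0298, kept in 6 of 12 fits). PRR37 and Ehd4 were the calls among 14 flowering genes, and PRR37 was the 1 call among 6 clock genes. LHY and OsPCL1, clock genes of opposite phase, read 9.43, 8.43 and 8.38 against 10.00, 9.82 and 8.40, and 4.42, 5.38 and 5.79 against 3.69, 3.38 and 4.09. Neither LHY nor OsPCL1 passed (adjusted p = 0.807 and 0.443). The labels used here do not give the hour of sampling.

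Some plastid genes fell. Of 20 genes of carotenoid and chlorophyll metabolism and plastid function 3 fell, 0 rose and 17 did not pass, with a median of -0.21. The share called was 15%, against 2.43% of all genes. Without asp1-10 replicate 3, 0 of the 20 passed in limma. The list median was -0.45 on that array and -0.15 on replicates 1 and 2. OsPSY1, the enzyme of the committed step to carotenoids, read 8.47, 7.43 and 8.35 in WT and 6.78, 6.88 and 5.52 in asp1-10. It fell 3.23-fold (SE 0.37, adjusted p = 0.0428, kept in 3 of 12 fits), and replicate 3 was the lowest array. Without replicate 3 the log2 change was -1.25 (adjusted p = 0.106).

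RRF, a plastid ribosome recycling factor, fell 2.13-fold from 8.15, 7.93 and 8.17 to 7.04, 7.15 and 6.78 (adjusted p = 0.0146, kept in 10 of 12 fits, highest 0.0573). OsRSH3, which makes the plastid alarmone of the stringent response, fell 2.14-fold from 11.04, 10.12 and 10.64 to 9.49, 9.74 and 9.27 (adjusted p = 0.0296, kept in 8, highest 0.1). Both genes were lower on each asp1-10 array than on any WT array. Of 8 photosynthesis genes PSAH, a photosystem I subunit, fell 2.31-fold (adjusted p = 0.0284, kept in 9, and 0.0896 without replicate 3). OEE3 of photosystem II read 7.51, 7.47 and 7.50 in WT and 6.75, 6.66 and 4.89 in asp1-10 and did not pass (adjusted p = 0.1). The samples held bracts, and the mean level of the 8 photosynthesis genes was lower on each asp1-10 array than on any WT array, lowest on replicate 3. Of the 8, PSAH and OEE3 alone had that separation, which 12.5% of all genes showed. The change was positive in 2 of the 8. PSAG read 7.17 and 7.11 on asp1-10 replicates 1 and 2, against 6.79 at most in WT. The part of bract tissue in the falls of plastid genes was not tested.

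Heat-stress genes differed unevenly across the asp1-10 arrays. Of 28 heat shock and chaperone genes 2 rose and 26 did not pass. HSP17.4, a small heat shock protein, read 6.0, 5.95 and 5.54 in WT and 9.51, 8.07 and 8.03 in asp1-10. The groups were about 2 log2 units apart, and the rise was 6.55-fold (SE 0.39, adjusted p = 0.0133, from 0.0163 to 0.046 over the fits without 1 array). HSFA2A, a heat-stress transcription factor also listed as HSF11, read 3.54, 4.10 and 3.44 in WT and 8.50, 6.96 and 4.84 in asp1-10.

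HSFA2A was dim in WT, and in asp1-10 it was highest on replicate 1 and nearest to WT on replicate 3. Its rise was 8.39-fold with all arrays (SE 0.65, adjusted p = 0.0414). Without replicate 3 the log2 change was 4.03 (adjusted p = 0.00353), the 1 leave-out of 12 that kept the call. HSP16.9C, another small heat shock gene, read 8.67 and 7.50 on replicates 1 and 2 and 5.67 on replicate 3, against 5.35, 5.16 and 5.04 in WT. CLPB-C, a disaggregase that resolves protein clumps, read 9.39, 8.67 and 7.40 against 7.46, 7.20 and 7.04. HSP16.9C and CLPB-C passed without replicate 3 and not with it (adjusted p = 0.0133 and 0.0491, against 0.0731 and 0.141).

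**Figure D3:**
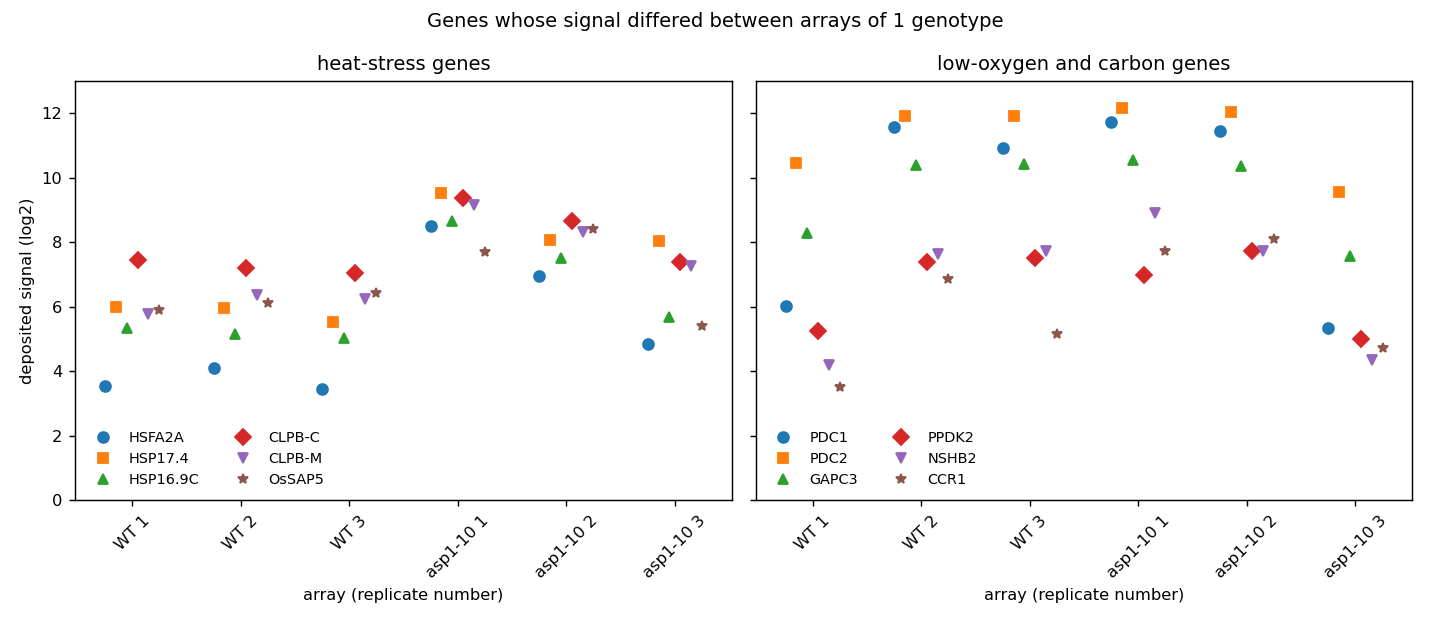
Deposited log2 signal (vertical axis) of 6 heat-stress genes (left) and 6 genes of fermentation and carbon metabolism (right) on the 3 WT and 3 asp1-10 arrays. The heat-stress genes are above WT on asp1-10 replicates 1 and 2 and nearer to WT on replicate 3, except HSP17.4, and the genes on the right are low on WT replicate 1 and asp1-10 replicate 3.

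Of 22 chromatin and Argonaute genes 1 rose and 1 fell (9.09%, against 2.43% of all genes). AGO18, an Argonaute protein of the reproductive phase, rose 1.99-fold from 6.11, 5.82 and 6.03 to 7.18, 6.66 and 7.10 (adjusted p = 0.0372, kept in 4 of 12 fits, highest 0.118). The Dicer-like genes DCL2A and DCL4, which cut double-stranded RNA and were named after their values were seen, each rose 1.58-fold (adjusted p = 0.0397 and 0.0405). SSRP1-B, a subunit of a histone chaperone, fell 2.05-fold from 8.56, 8.20 and 8.38 to 7.43, 7.58 and 7.01 (adjusted p = 0.0326, kept in 6 of 12 fits, highest 0.106). AGO18 and SSRP1-B were the calls on that list, which had a median of 0.06.

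The cell wall list, which also marks vascular tissue, had 2 rises among 81 genes (2.47%), a share near the 2.43% of all genes. CESA4, a cellulose synthase of secondary walls, rose 1.52-fold (adjusted p = 0.0296, kept in 7 of 12 fits), and BC1L2, a COBRA-like gene, rose 1.87-fold (adjusted p = 0.0256, kept in 8). The mean level of the 81 genes ran from 5.30 to 5.35 in WT and from 5.33 to 5.39 in asp1-10, so the ranges overlapped. Of 50 sugar and starch genes 1 rose, a hexokinase (LOC4342654, listed as HXK4), which was dim in WT and rose 2.16-fold (adjusted p = 0.0264, kept in 9).

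The remaining large rises with a name were OsAPY3, an apyrase (2.38-fold, adjusted p = 0.0298, kept in 8 of 12 fits), BCL1, a bHLH factor (2.19-fold, adjusted p = 0.0319, kept in 6), OsYSL2, a metal-nicotianamine transporter (2.18-fold, adjusted p = 0.0209, kept in 11), and CIPK1, a calcium-signalling kinase (2.17-fold, adjusted p = 0.0324, kept in 7). The remaining large falls were HAP3I, an NF-Y subunit gene (2.18-fold, adjusted p = 0.0283, kept in 9), ADF-10, an actin-severing protein (1.85-fold, adjusted p = 0.0419, kept in 3), NRAMP3, a manganese transporter (1.68-fold, adjusted p = 0.0387, kept in 4), and MYBS1, a sugar-responsive MYB factor (1.60-fold, adjusted p = 0.0277, kept in 7). HAP3I was dim, with means of 5.45 in WT and 4.33 in asp1-10. Other lists had 0 calls in limma, and their counts at an unadjusted p below 0.05 are set against 19.4% of all genes. The counts were 5 of 14 aquaporins (35.7%), 3 of 7 NAC (42.9%), 2 of 5 WRKY (40%), 3 of 15 bZIP (20%) and 1 of 6 TCP genes (16.7%). They were 1 of 8 dehydration and LEA genes (12.5%), 3 of 45 defence genes (6.67%), 0 of 11 ribosomal protein genes and 0 of 3 strigolactone genes. Of the anther and meiosis list 1 of 16 passed, GAMYB, and of 5 MYB genes GAMYB rose and MYBS1 fell.

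Of the 368 called genes 59 carried a name (3.39% of the 1740 genes with a name) and the rest only a locus number, including the strongest changes. The following were chosen after their values were seen. The tables used here give them no name, and as ASP1 was not matched by name, whether an unnamed gene such as LOC4344728 is ASP1 itself was not tested. LOC4344728 (chromosome 8) had the smallest adjusted p of all genes, and read 10.09, 10.52 and 10.04 in WT and 12.72, 12.60 and 12.35 in asp1-10. It rose 5.05-fold (SE 0.18, adjusted p = 0.00263, and 0.00241 without replicate 3). LOC4335556 (chromosome 4) rose most, 15.8-fold, from 6.11, 5.64 and 5.24 to 10.53, 8.61 and 9.79 (adjusted p = 0.0165, and 0.0553 without replicate 3). LOC4324254 (chromosome 1) fell most, 6.78-fold, from 9.90, 8.36 and 8.94 to 6.70, 6.35 and 5.87 (adjusted p = 0.0225, and 0.0709 without replicate 3).

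The genes that replicate 3 set apart most were chosen by that gap and are a description without a test. PDC1 and PDC2, pyruvate decarboxylases of fermentation, read 11.71 and 11.46, and 12.17 and 12.03, on replicates 1 and 2, and 5.35 and 9.56 on replicate 3. Both were also low on WT replicate 1, at 6.02 and 10.47 against 10.94 or more on the other WT arrays. GAPC3 and PPDK2, enzymes of glycolysis and pyruvate metabolism, and CCR1, a lignin-pathway reductase, shared that low WT array, with 8.30, 5.24 and 3.50 there and 7.58, 5.0 and 4.71 on asp1-10 replicate 3.

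SAT1, BBD2, LIR1 (a light-induced plastid protein gene) and OsC3H37 (a zinc finger gene) were lower on replicate 3 by 2.44 to 3.76 log2 units, at 6.02, 6.79, 5.68 and 7.41. On fon2-3 and double mutant arrays SAT1 ran from 5.62 to 6.76 and BBD2 from 6.59 to 7.79, so that replicate 3 lay within their range and replicates 1 and 2 near WT. OsSAP5, a stress-associated zinc finger gene, read 7.69 and 8.41 on replicates 1 and 2 and 5.41 on replicate 3, against 5.88 to 6.43 in WT. It passed without replicate 3 (log2 change 1.90, adjusted p = 0.0304) and not with it (adjusted p = 0.382). All 10 genes of this group were lower on replicate 3. Of the 18 genes of low oxygen response and glycolysis 0 passed between asp1-10 and WT in limma, with 1 at an unadjusted p below 0.05.

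Among the 368 called genes the direction was the same without replicate 3 in every case, and 62 were still called in that fit, 42 rises and 20 falls. A further 10 genes passed in that fit and not with all arrays. The rises had a median of 0.78 on replicates 1 and 2 and 0.99 on replicate 3, and 161 of 212 were farther from WT on replicate 3. The falls had medians of -0.83 and -0.98, with 109 of 156 farther on replicate 3. HSFA2A was among 4 genes (3 rises and 1 fall) that on replicate 3 showed under 50% of the change on replicates 1 and 2. These medians describe genes called with replicate 3 included.

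**Figure D4:**
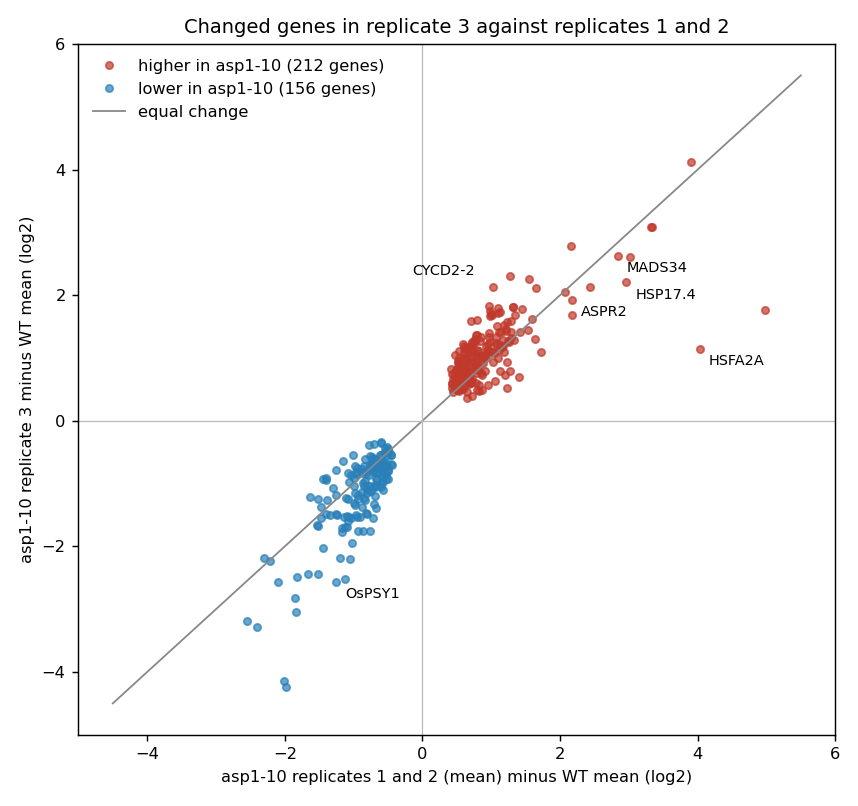
Log2 change of the 368 called genes on asp1-10 replicate 3 (vertical axis) against the mean of replicates 1 and 2 (horizontal axis), each minus the WT mean, with rises in red, falls in blue and a line of equal change. All genes lie in the same direction on both axes, most of them farther from 0 on replicate 3, and HSFA2A lies far below the line.

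The other mutants carry fon2-3, alone or with asp1-fe, and were compared with asp1-10 directly. Of 15140 genes 3 (0.0198%) differed between asp1-10 and fon2-3. ASPR2, at 8.39, 9.45 and 9.03 in fon2-3, was higher in asp1-10 by 1.89 (adjusted p = 0.0332, kept in 3 of 12 fits, highest 0.175). LOC4335004 was lower in asp1-10 by 2.02 (difference -2.02, adjusted p = 0.0213, kept in 8) and LOC4333361 by 1.32 (difference -1.32, adjusted p = 0.0213, kept in 7). MADS34 read 6.84, 8.75 and 5.78 in fon2-3, and its difference of 2.52 from asp1-10 did not pass (adjusted p = 0.25). DL just missed the threshold in this contrast (difference -1.22, adjusted p = 0.0547).

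Between the double mutant and asp1-10 also 3 genes (0.0198%) differed, all higher in the double mutant. DL read 10.22, 10.14 and 10.24 there, close to WT, and exceeded asp1-10 by 1.49 (adjusted p = 0.0219, kept in 4 of 12 fits, highest 0.184). LOC4326339 exceeded it by 3.09 (adjusted p = 0.000591, kept in all 12), and LOC4341024 by 0.97 (adjusted p = 0.0219, kept in 3). ASPR2 at 10.88, 10.75 and 11.13 and MADS34 at 9.47, 9.83 and 9.98 lay as high as in asp1-10, with differences of 0.07 and 0.12 (adjusted p = 0.972 and 0.985). The asp1 allele differs between these lines, so allele and fon2-3 cannot be told apart in this contrast.

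Without asp1-10 replicate 3 these counts were 107 genes against fon2-3 (60 higher and 47 lower in asp1-10) and 39 against the double mutant (9 higher and 30 lower in the double mutant), so both counts, and the split by direction, depended on the array that stood apart. Of the 212 rises 0 and of the 156 falls 2 differed between asp1-10 and the double mutant in limma, with 52 and 44 at an unadjusted p below 0.05, against 9.68% of all genes. These genes were called on the same asp1-10 arrays, so nothing is read from those shares. Values against WT, which share the WT arrays, were 3.07, 0.44 and 0.10 in asp1-10, fon2-3 and the double mutant for HSFA2A, and 2.71, -0.15 and 0.85 for HSP17.4. For CYCD2-2 they were 1.39, 1.88 and 2.04, for OSH71 1.3, 1.07 and 1.2, and for OsPSY1 -1.69, -2.22 and -2.02. Compared directly in limma, asp1-10 did not pass for HSFA2A against fon2-3 or the double mutant (adjusted p = 0.27 and 0.301). The same held for HSP17.4 (adjusted p = 0.0514 and 0.263).

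**Figure D5:**
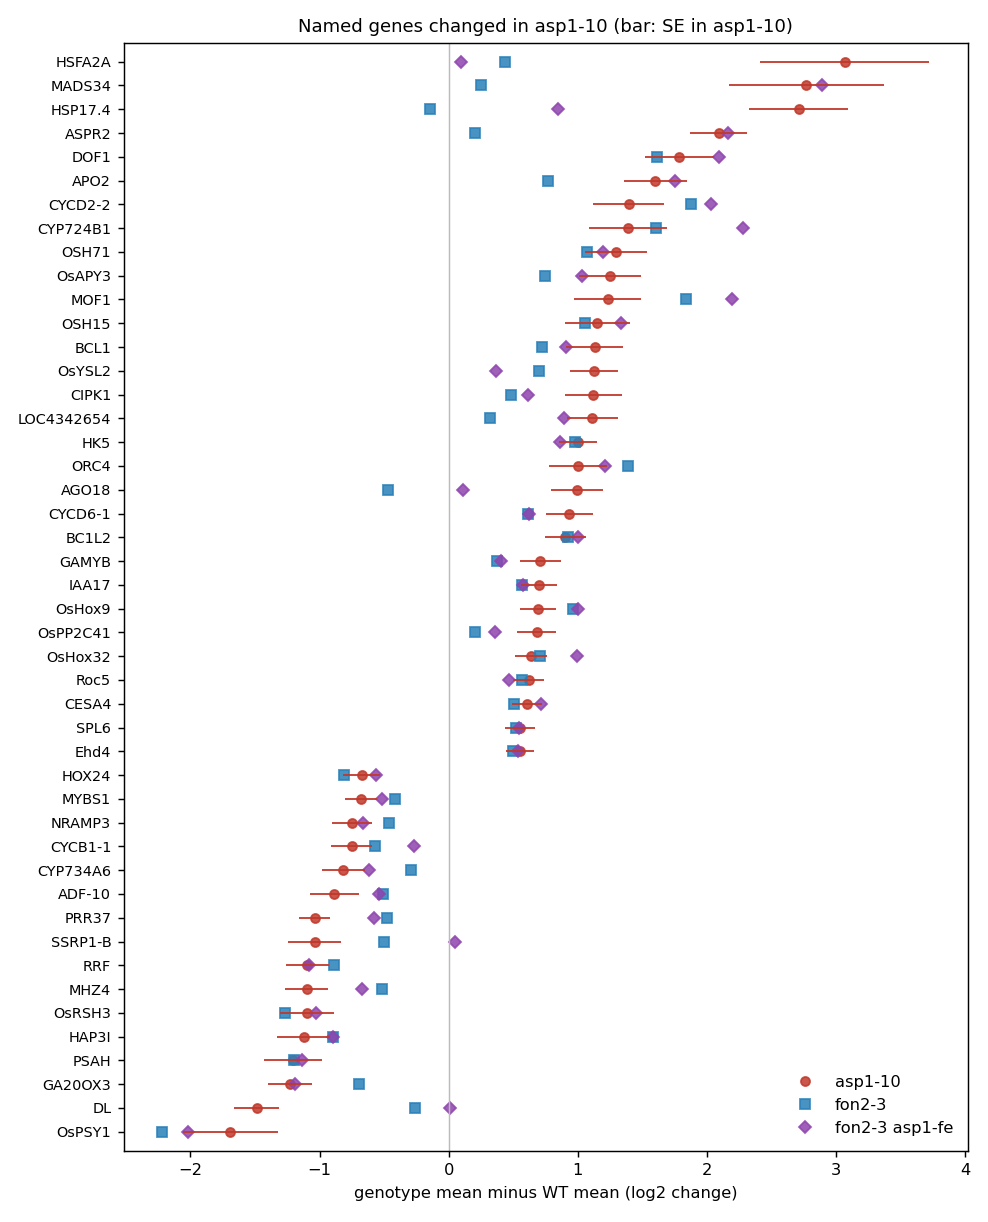
Log2 change against WT (horizontal axis) of the 46 named genes called in asp1-10, in asp1-10 (red circles with SE), fon2-3 (blue squares) and fon2-3 asp1-fe (violet diamonds), all set against the same WT arrays. ASPR2 and MADS34 lie far from 0 in asp1-10 and the double mutant and near it in fon2-3, and DL and HSFA2A lie far from 0 in asp1-10 only. Compared directly with asp1-10, DL passed against the double mutant but not fon2-3, and HSFA2A passed against neither. Others, such as HK5, OSH71 and RRF, lie about equally far from 0 in each mutant.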

How the data were processed

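RNA of dissected rice inflorescence meristems was hybridised to 12 Affymetrix arrays, 3 per genotype. The authors deposited log2 signals made with Affymetrix Expression Console 1.3, per the submitters' processing notes; which background correction, normalization, summarisation and log base it used is not stated, and base 2 was taken from the range of the values. Of 54922 probes 15829 had 1 listed gene, 440 several and 38653 none. The probe with the highest mean stood for each of 15140 genes; 1740 had a name in the RefSeq table of ASM3414082v1. Lists were matched on symbols and synonyms, and alias clashes were removed by identity.

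All probes and all 12 arrays entered a linear model in limma 3.58.1 in R 4.3.3, with genotype as the factor (residual degrees of freedom 8, prior 3.22), with Benjamini-Hochberg adjustment. Exact permutation of 3 against 3 arrays cannot give a two-sided p below 0.1. On simulated arrays of 54922 probes, 50 of 100 changes of 1 log2 unit and 90 of 100 changes of 2 were recovered, with 7 false calls. The simulated noise was normal and independent between probes and arrays, and no array was set apart. These counts therefore give no error rate for the real arrays, where asp1-10 replicate 3 stood apart. Named genes were a core set, the 15 largest named rises and falls, up to 4 called members per list and the 10 genes replicate 3 set apart most. Members and lists were chosen with earlier results of these data known. Promoter sequences were not used here. The number of arrays limits the precision.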

Additional observations from a re-analysis of the deposited data

How the results depend on the processing

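All 46 named genes called in asp1-10 against WT kept their direction under every alternative run for them. The 368 genes called there became 846 with dim probes left out, 562 with a variance trend and robust prior, 138 at an absolute log2 change of at least 1, and 1 with only the groups compared; leaving out 1 array gave 47 to 366. For asp1-10 against fon2-3 the 3 genes became 9 with cyclic loess, 20 without dim probes, 13 with the trend, 9 with array weights, 17 adjusted over 1 probe per gene, 15 with 1 probe of each identical set, and 0 with only the groups compared (1235 at an unadjusted p below 0.05); leaving out 1 array gave 0 to 107. For fon2-3 asp1-fe against asp1-10 the 3 became 1 with only the groups compared, and 1 to 39 with 1 array left out. Counts not given here stayed within 1.5 times of the reported ones. ASPR1, near 0, turned to -0.012 with median centring, -0.002 without WT replicate 2 and -0.029 without asp1-10 replicate 2, the lower end of a range that reached 0.044 with 1 array left out. Of 741 recomputed list medians 691 moved by less than 1 SD between asp1-10 arrays. Beyond fewer arrays or probes, the causes were not tested.

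Replicate numbers did not pair the samples: same-numbered WT and asp1-10 arrays correlated at -0.06 to -0.016 in their deviations from the group means. With a replicate block the counts were 159, 0 (1607 at an unadjusted p below 0.05) and 1, and 21 of the 46 named genes kept their call. Signals below 5.55 limit what could be measured.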
